A study of Homo sapiens with 18 samples.

Results

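The platelet-derived growth factor (PDGF) genes were followed in LX-2, a line of human hepatic stellate cells, as 6 gene symbols of a table of 28278: the ligand genes PDGFA, PDGFB, PDGFC and PDGFD and the receptor genes PDGFRA and PDGFRB. The genes were taken by symbol, and all 6 passed the filter on low counts that left 15353 genes for testing. The cells had received 1 U/mL of thrombin, a serine protease of blood clotting, or only medium without serum as control, and were collected 4, 24 or 48 h later. Both treatments followed 1 h in serum-free medium, and each of the 6 groups held 3 libraries of poly(A)-enriched RNA. The labels name no genetic change in any group.

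PDGF chains pair into dimers that bring receptor chains together at the cell surface, where the receptors phosphorylate each other on tyrosines and recruit signalling proteins. PDGFA and PDGFB chains are secreted ready to bind after cleavage inside the cell, whereas PDGFC and PDGFD carry an added CUB domain that proteases must remove outside it. PDGFRA, the alpha receptor, binds A, B and C chains, and PDGFRB, the beta receptor, binds B and D chains. In injured liver PDGF is known as a strong mitogen and attractant for stellate cells, and PDGFRB marks these cells.

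Promoter windows, 250 bases before to 50 bases after a RefSeq transcript start (GRCh38.p14), were held for 4 of the 6 genes. Those of PDGFA, PDGFRA and PDGFRB are shown. For each gene the window was the one whose start lay nearest the outermost coding transcript start of GENCODE v29. Capitals mark GC boxes, searched as GGGCGG on both strands, and in PDGFRA the AP-1 motif, searched as TGANTCA on both strands. Sequences run 5′ to 3′ on the gene's strand.
PDGFA, chr7:519797-520096, minus strand: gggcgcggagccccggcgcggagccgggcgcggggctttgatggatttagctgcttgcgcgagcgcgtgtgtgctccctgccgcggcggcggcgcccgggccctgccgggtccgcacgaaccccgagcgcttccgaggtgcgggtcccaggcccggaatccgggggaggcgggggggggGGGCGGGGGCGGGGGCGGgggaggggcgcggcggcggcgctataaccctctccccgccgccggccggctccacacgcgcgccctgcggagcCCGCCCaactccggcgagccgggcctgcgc
PDGFRA, chr4:54229043-54229342, plus strand: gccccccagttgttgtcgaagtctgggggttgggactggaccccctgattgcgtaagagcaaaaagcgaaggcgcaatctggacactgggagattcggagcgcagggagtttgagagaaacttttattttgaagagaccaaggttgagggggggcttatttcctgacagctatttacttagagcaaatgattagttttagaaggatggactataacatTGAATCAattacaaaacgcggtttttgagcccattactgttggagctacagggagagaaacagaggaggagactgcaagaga
PDGFRB, chr5:150155796-150156095, minus strand: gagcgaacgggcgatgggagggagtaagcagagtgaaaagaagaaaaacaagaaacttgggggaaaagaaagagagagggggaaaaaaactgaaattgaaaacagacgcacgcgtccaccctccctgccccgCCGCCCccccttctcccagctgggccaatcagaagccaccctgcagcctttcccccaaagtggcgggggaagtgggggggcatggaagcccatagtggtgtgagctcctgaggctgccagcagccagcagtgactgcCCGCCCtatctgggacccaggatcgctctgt

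The PDGFA window, whose RefSeq start lay 437 bases from the GENCODE start and is 1 of 4 such starts, was 81.7% G and C and held 4 GC boxes, 3 of them in an unbroken run. An early growth response (EGR) motif, searched as GCGNGGGCG on both strands, matched 2 times within that run and overlapped the GC boxes. The PDGFRA window was 47.0% G and C, held 0 GC boxes and had 1 AP-1 match, which began at base 219 of the window. This match lay between the GENCODE start, 196 bases upstream of the RefSeq start, and the RefSeq start itself. The window shown is 1 of 2 held for PDGFRA. The other, whose start lay 4863 bases from the GENCODE start, was 66.7% G and C. It held 2 GC boxes and 0 AP-1 matches. The PDGFRB window was 59.3% G and C and held 2 GC boxes. The AP-1 motif had 0 matches in the PDGFA and PDGFRB windows, and the EGR motif 0 in the PDGFRA and PDGFRB windows. Searches for a TATA box (TATAAA), a TEAD site (GGAATG) and a CArG box (CCWWWWWWGG, W for A or T) gave 0 matches in the 3 windows. Among all 35116 windows of the same length, 45.0% held a GC box, 9.43% the EGR motif and 7.71% the AP-1 motif, and the median G and C content was 58.7%. Counts per gene do not say which start was used, and these matches describe letters, not binding.

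Library totals ran from 14431044 to 23270601 counts. Levels are given as counts per 1000000 (CPM), after TMM scaling except for cell type marker sums and averages, which used the plain library totals. The stellate and myofibroblast markers summed to between 6875 and 8193 CPM in every library. VIM and COL1A1 were the most abundant, while LRAT, DCN, LUM and GFAP averaged under 1 CPM. Hepatocyte markers summed to at most 6.48 CPM, with TTR at 0, endothelial markers to between 15.4 and 30.1 CPM, with LYVE1 at 0, and macrophage markers to between 67.9 and 100.2 CPM, mostly CD68, with VSIG4 at 0. Cholangiocyte markers summed to between 129 and 271 CPM, mostly SOX9, with EPCAM averaging 0.0517 CPM. By the test used below, 11 of the 15353 genes separated the groups labelled thrombin at 4 h and control at 24 h, and 55 separated thrombin at 48 h from control at 24 h. Of the 961 genes called in thrombin against control at both 4 h and 24 h, 948 had opposite signs at the 2 times and 13 the same sign. Whether the treatment labels of either time were exchanged cannot be told from the labels. An exchange at 4 h or at 24 h would turn every direction given here for that time. It would also change each comparison between times that uses those groups. Groups are named as labelled. Replicates carry the numbers 12, 13 and 14 in the labels, which do not say whether they were separate cultures, so the p-values rest on a spread that could be technical.

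At 24 h, PDGFA, PDGFB and PDGFRA transcripts were higher in thrombin than in control libraries, by 1.89-, 2.08- and 2.72-fold. At 4 h PDGFA was lower in thrombin libraries, by 1.36-fold, and no other member was called. At 48 h no member was called. PDGFC, the most abundant ligand transcript, PDGFD and PDGFRB were called at none of the 3 times. A call means a Benjamini-Hochberg adjusted p under 0.05 over all 15353 genes in edgeR's quasi-likelihood test. In bulk RNA, fewer cells that express a gene and less of its RNA per cell cannot be told apart.

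These calls were read against the same calls over all genes. At 24 h, 3 of 6 members were higher and 0 lower, where 9.05% of the genes tested were higher and 8.54% lower (17.6% in either direction). At 4 h, 0 of 6 were higher and 1 lower, where 6.29% of genes were higher and 5.52% lower (11.8% in either direction). At 48 h, 0 of 6 were called, where 0% of genes were; edgeR gave 1110 genes at an unadjusted p under 0.05, and DESeq2 called 14 genes and gave 1062 at an unadjusted p under 0.05. The median log2 fold change of the 6 members was -0.08 at 4 h, 0.49 at 24 h and -0.04 at 48 h, where the medians of all genes were -0.00084, 0.0017 and 0.0089.

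PDGFA encodes the A chain, which binds only the alpha receptor, and lies at chr7:497258-520700 on the minus strand. At 4 h it measured 22.7, 23.7 and 24.9 CPM in the thrombin libraries (numbers 12, 13 and 14), against 29.4, 31.4 and 35.9 CPM in the control libraries. All 3 thrombin libraries lay below all 3 control libraries. The log2 fold change was -0.44 ± 0.10 (SE, n = 3 each; adjusted p = 0.00393).

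At 24 h PDGFA measured 40.3, 48.1 and 43.6 CPM in thrombin libraries, against 23.5, 22.4 and 24.0 CPM in control libraries. The groups did not overlap, and the 3 thrombin libraries were the highest of all 18. The log2 fold change was 0.92 ± 0.10 (SE, n = 3 each; adjusted p = 1.67e-07). At 48 h PDGFA measured 28.4, 25.7 and 23.4 CPM in thrombin libraries, against 27.2, 27.1 and 26.2 CPM in control libraries. These groups overlapped, with a log2 fold change of -0.05 (95% interval -0.25 to 0.15).

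The effect on PDGFA at 24 h exceeded that at 4 h by 1.36 ± 0.14 on the log2 scale (SE; adjusted p = 5.27e-08), and that at 48 h was below that at 24 h by 0.97 (log2 difference -0.97 ± 0.14, adjusted p = 2.29e-05). In these differences of effects 3 of 6 members were higher and 0 lower at 24 h than at 4 h, where 13.6% of genes were higher and 14.3% lower (28% in all). From 24 h to 48 h, 0 members were higher and 3 lower, where 7.16% of genes were higher and 6.68% lower (13.8% in all). As labelled, PDGFA also changed within the controls, a comparison that an exchange of treatment labels at 4 h or 24 h would change. Control libraries at 24 h were lower in PDGFA than control libraries at 4 h (log2 fold change -0.47 ± 0.10, SE, n = 3 each; adjusted p = 0.00177). It was the only member called in that comparison, in which 8.1% of genes were higher and 7.15% lower (15.2% in all). Ordered by mean, thrombin 24 h stood first at 44.0 ± 3.93 CPM and control 4 h next at 32.2 ± 3.30 CPM (SD, n = 3 each). That step was itself called (log2 fold change 0.45 ± 0.09, adjusted p = 0.00508), in a comparison where 3.34% of genes were called. The 4 neighbouring steps below it, which end at control 24 h with 23.3 ± 0.81 CPM, were not.

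PDGFB encodes the B chain, which binds both receptors, and lies at chr22:39223359-39244982 on the minus strand. At 4 h it measured 15.9, 13.4 and 14.5 CPM in thrombin libraries, against 16.5, 14.5 and 12.3 CPM in control libraries. The groups overlapped, and the log2 fold change was 0.01 (95% interval -0.28 to 0.30). At 24 h PDGFB measured 32.9, 29.6 and 22.5 CPM in thrombin libraries, against 12.0, 13.1 and 15.5 CPM in control libraries. The groups did not overlap, and number 14 held both the lowest thrombin value and the highest control value. The log2 fold change was 1.06 ± 0.14 (SE, n = 3 each; adjusted p = 4.87e-06).

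At 48 h PDGFB measured 19.4, 18.6 and 16.6 CPM in thrombin libraries, against 18.3, 14.6 and 17.0 CPM in control libraries. The groups overlapped (log2 fold change 0.13, 95% interval -0.15 to 0.41). The effect at 24 h was larger than at 4 h by 1.05 ± 0.20 on the log2 scale (SE; adjusted p = 0.000286), and the 48 h effect minus the 24 h effect was -0.93 ± 0.20 (adjusted p = 0.00205). In the order of means, thrombin 24 h at 28.3 ± 5.34 CPM stood above thrombin 48 h at 18.2 ± 1.45 CPM (SD, n = 3 each), the only one of the 5 neighbouring steps to be called (adjusted p = 0.00258). PDGFB in control libraries did not differ between 24 and 4 h by the test (log2 fold change -0.09 ± 0.14, adjusted p = 0.722).

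PDGFC, at chr4:156760454-156971799 on the minus strand, encodes a CUB-domain ligand of the alpha receptor. It ranged from 204 to 253 CPM over the 18 libraries, which put its mean above 94.9% of the genes tested. At 24 h it measured 249, 253 and 225 CPM in thrombin libraries, against 224, 242 and 233 CPM in control libraries. The groups overlapped at all 3 times. The thrombin effects on the log2 scale were 0.06 at 4 and 24 h and -0.05 at 48 h, and their 95% intervals together ran from -0.21 to 0.21. None of its 5 neighbouring steps was called, and its highest group mean was 1.10 times the lowest.

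PDGFD, at chr11:103907189-104164147 on the minus strand, encodes the CUB-domain ligand of the beta receptor. It was scarce, with 31 to 83 counts per library, or 2.12 to 3.66 CPM. At 24 h it measured 2.89, 2.38 and 3.55 CPM in thrombin libraries, against 2.87, 3.50 and 3.24 CPM in control libraries. The groups overlapped at each time, and the log2 effects were -0.17 ± 0.19 at 4 h, -0.11 ± 0.20 at 24 h and -0.03 ± 0.20 at 48 h (SE). The 95% interval at 24 h ran from -0.53 to 0.30.

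**Figure D1:**
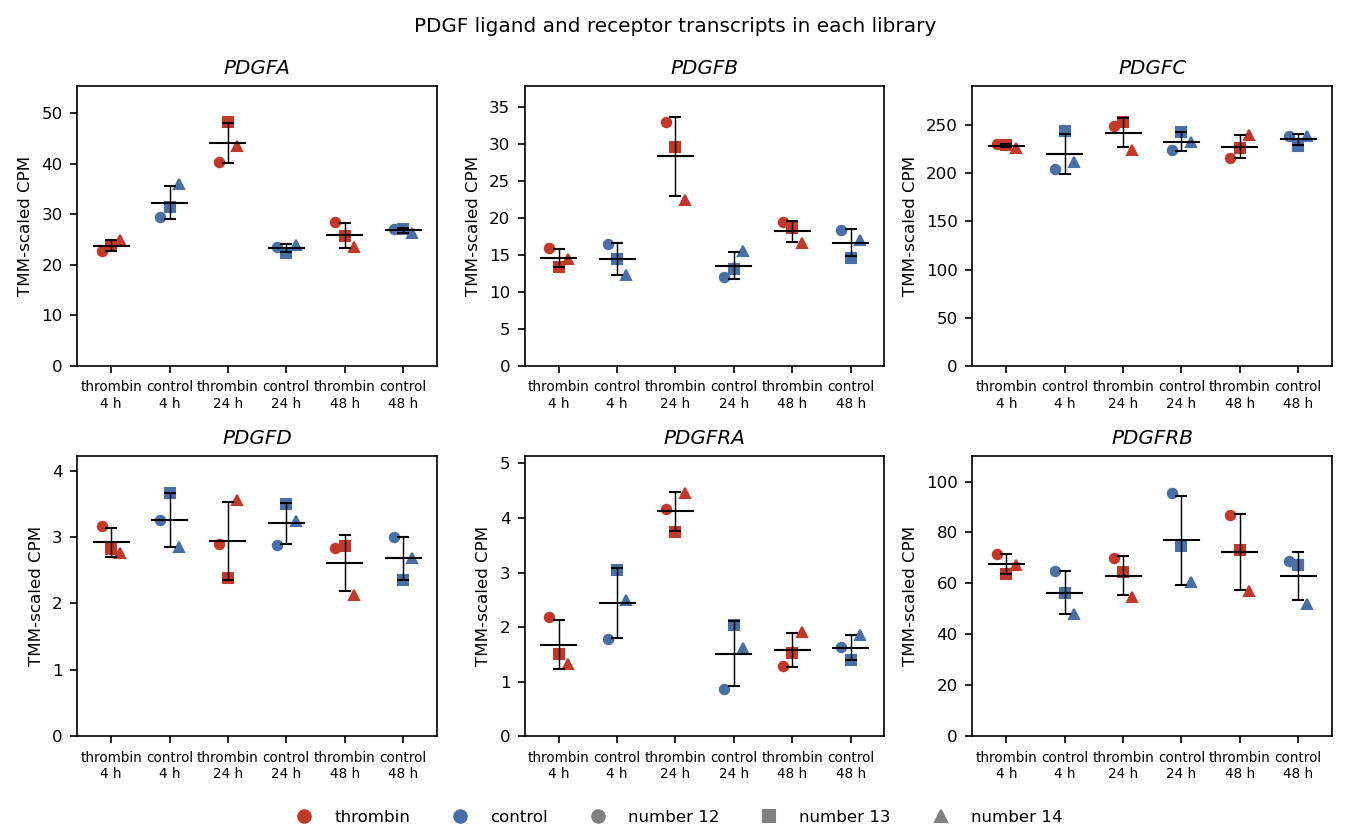
Level of each PDGF gene in each library, in CPM, with thrombin in red and control in blue at each time. Symbols give the replicate number, lines the mean and bars the SD of 3 libraries; the thrombin 24 h libraries of PDGFA, PDGFB and PDGFRA stand above every other library of the same gene.

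PDGFRA encodes the alpha receptor and lies at chr4:54229293-54298245 on the plus strand. It was the lowest member on average, with 13 to 79 counts per library, and exceeded PDGFD in the 3 thrombin 24 h libraries. At 4 h it measured 2.19, 1.51 and 1.33 CPM in thrombin libraries, against 1.78, 3.04 and 2.504 CPM in control libraries. The groups overlapped through number 12, in which the thrombin library was the higher. The log2 fold change of -0.55 ± 0.27 was not called (SE, n = 3 each; adjusted p = 0.191). Without the 6 libraries numbered 12 it was -0.98 and was called (adjusted p = 0.0183).

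At 24 h PDGFRA had 62, 55 and 79 counts in thrombin libraries, against 13, 31 and 27 counts in control libraries. In CPM these were 4.17, 3.74 and 4.46 in thrombin libraries, against 0.869, 2.05 and 1.62 in control libraries. The groups did not overlap, and the control library numbered 12 was the lowest of all 18. The log2 fold change was 1.44 ± 0.27 (SE, n = 3 each; 95% interval 0.89 to 2.00; adjusted p = 0.00041). Counting error alone gave the highest of these libraries, with 79 counts, an exact 95% Poisson interval of 62.5 to 98.5 counts, and the lowest, with 13 counts, an interval of 6.92 to 22.2. Without the libraries numbered 12 the log2 fold change was 1.17 (adjusted p = 0.00492).

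At 48 h PDGFRA measured 1.30, 1.53 and 1.92 CPM in thrombin libraries, against 1.63, 1.39 and 1.85 CPM in control libraries. These overlapped (log2 fold change -0.04, 95% interval -0.64 to 0.56). The thrombin effect on PDGFRA at 24 h exceeded that at 4 h by 1.99 ± 0.38 (SE; adjusted p = 0.000331), and the 48 h effect minus the 24 h effect was -1.48 ± 0.40 (adjusted p = 0.0133). The second of these was no longer called without number 12 (-1.09, adjusted p = 0.116). Thrombin 24 h, the highest group mean at 4.12 ± 0.36 CPM, was not separated from control 4 h at 2.44 ± 0.64 CPM (SD, n = 3 each; log2 fold change 0.74 ± 0.25, adjusted p = 0.107), nor was any lower neighbouring step called. GENCODE v29 places a coding read-through transcript on the same strand over PDGFRA. That transcript was not among the symbols of the table, so reads of the pair cannot be told apart.

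PDGFRB encodes the beta receptor, lies at chr5:150113839-150155845 on the minus strand and had 691 to 1538 counts per library. At 4 h it measured 71.7, 63.7 and 67.3 CPM in thrombin libraries, against 64.7, 56.3 and 48.1 CPM in control libraries. At 24 h the values were 70.0, 64.6 and 54.7 CPM in thrombin libraries, against 95.5, 74.7 and 60.5 CPM in control libraries. At 48 h they were 86.7, 73.1 and 57.1 CPM in thrombin libraries, against 69.0, 67.4 and 51.9 CPM in control libraries. All 3 pairs of groups overlapped, and number 12 was the highest library of its group in 6 of 6 groups while number 14 was the lowest in 5 of 6.

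The thrombin effects on PDGFRB were 0.26 ± 0.16 at 4 h, -0.29 ± 0.16 at 24 h and 0.20 ± 0.16 at 48 h on the log2 scale (SE, n = 3 each), with adjusted p = 0.320, 0.245 and 0.801. Their difference between 24 h and 4 h was -0.55 ± 0.23 (adjusted p = 0.0790). This difference was called under several other settings, among them DESeq2 (-0.55, adjusted p = 0.0457), no filter on low counts (-0.54, adjusted p = 0.00124), and the fits without the control 4 h library numbered 12 (-0.66, adjusted p = 0.0409) or the control 24 h library numbered 14 (-0.69, adjusted p = 0.0205). The effect at 24 h was called with no filter on low counts (-0.29, adjusted p = 0.0313).

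**Figure D2:**
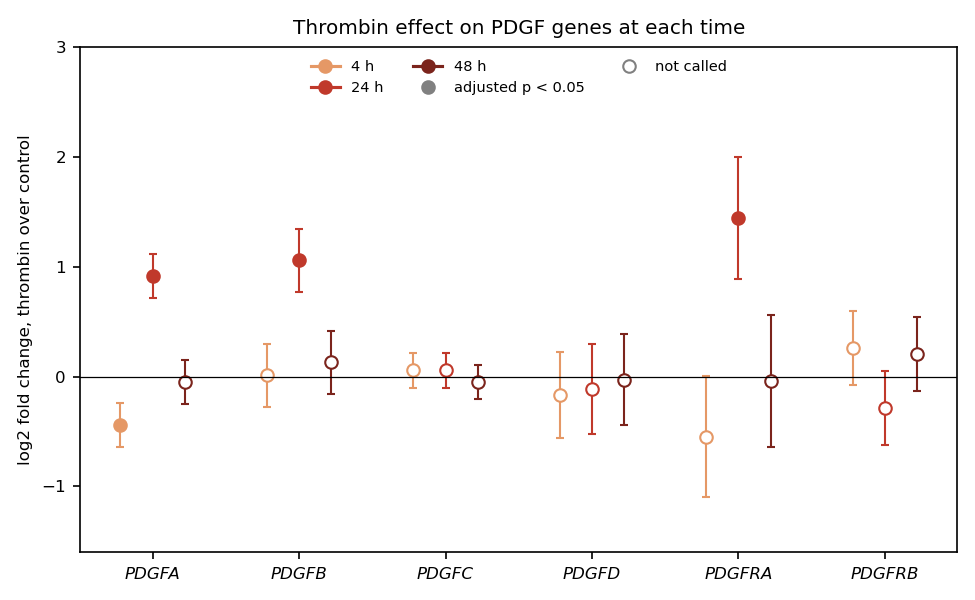
Log2 fold change of thrombin over control for each PDGF gene at 4, 24 and 48 h, with 95% intervals from edgeR's quasi-likelihood fit; filled points had an adjusted p under 0.05. The filled points are PDGFA at 4 h (-0.44) and PDGFA (0.92), PDGFB (1.06) and PDGFRA (1.44) at 24 h.

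Within the thrombin libraries, 3 of 6 members, PDGFA, PDGFB and PDGFRA, were higher at 24 h than at 4 h, and 0 were lower, where 7.85% of genes were higher and 7.28% lower (15.1% in all). The log2 fold changes were 0.89 ± 0.10 for PDGFA, 0.95 ± 0.14 for PDGFB and 1.29 ± 0.26 for PDGFRA (SE, n = 3 each), with adjusted p = 3.03e-07, 1.76e-05 and 0.000938. The same 3 were lower at 48 h than at 24 h, by -0.77 ± 0.10, -0.63 ± 0.14 and -1.39 ± 0.27, where 4.31% of genes were higher and 5.41% lower (9.72% in all). Each of these contrasts shares the thrombin 24 h libraries with the comparison against control at 24 h, so they are not separate evidence. The platelet and megakaryocyte markers, from a lineage known to store PDGF, summed to between 9.63 and 10.6 CPM in thrombin 24 h libraries, against 12.9 to 16.8 CPM in control 24 h libraries. Of these 5 markers PPBP was at 0 in every library and ITGA2B was the most abundant. Of the 14 stellate markers tested, 5 rose and 2 fell at 24 h, and of the 6 endothelial markers tested, 2 rose and 1 fell, where 9.05% of all genes tested were higher and 8.54% lower at that time. The part of these markers in the 24 h result was not tested.

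To compare levels between genes, counts were divided by exon length in kilobases and scaled for depth (RPKM). Averaged over the 18 libraries, PDGFC had 55.5 RPKM, PDGFA 12.4, PDGFRB 11.6, PDGFB 4.96, PDGFD 0.721 and PDGFRA 0.274. PDGFRB was thus the main receptor transcript and PDGFC the main ligand transcript. The summed level of the 4 ligands was 85.4 ± 5.34 RPKM in thrombin 24 h libraries, against 70.3 ± 2.37 RPKM in control 24 h libraries (SD, n = 3 each).

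Within that sum at 24 h, PDGFC made up 68.1 ± 0.75% in thrombin libraries and 79.5 ± 1.05% in control libraries. PDGFA made up 21.7 ± 1.90% in thrombin and 13.9 ± 0.80% in control libraries, and PDGFB 9.30 ± 1.36% in thrombin and 5.42 ± 0.62% in control libraries (SD, n = 3 each). A share falls when another ligand rises, and the PDGFC level itself was not called. At 4 h the PDGFA share was 14.4 ± 0.70% in thrombin libraries and 19.1 ± 2.21% in control libraries.

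The ratio of receptor counts within a library needs no scaling between libraries. At 24 h there were 5.96, 5.78 and 8.15 PDGFRA counts per 100 PDGFRB counts in thrombin libraries, against 0.910, 2.74 and 2.68 in control libraries, and the groups did not overlap. On the log2 scale, with 0.5 added to each count, the difference was 1.77, or 3.42-fold, with p = 0.1 in a two-sided exact permutation test, the smallest p that 3 against 3 allows. At 4 h the log2 difference was -0.81 (exact permutation p = 0.2) and at 48 h it was -0.24 (exact permutation p = 0.6). Without the libraries numbered 12 the log2 difference was -1.28 at 4 h, 1.33 at 24 h and -0.03 at 48 h.

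**Figure D3:**
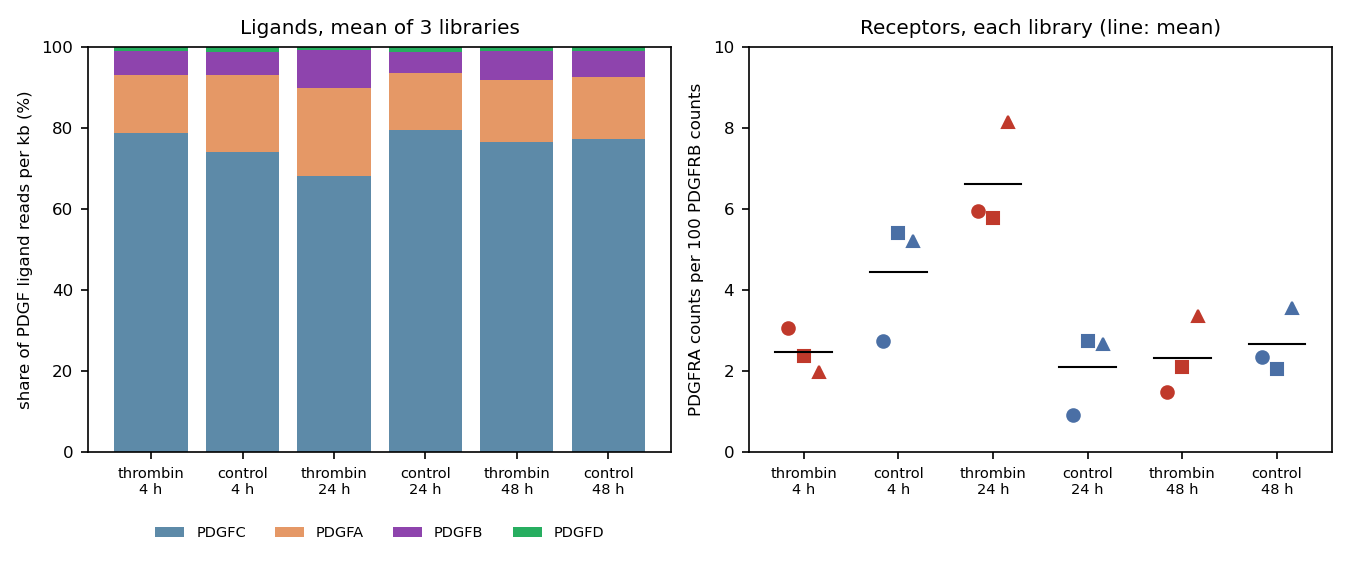
Left, the mean share of each ligand in the summed ligand transcripts per kilobase, in percent of 3 libraries a group; right, PDGFRA counts per 100 PDGFRB counts in each library, with lines for the means and circles, squares and triangles for numbers 12, 13 and 14. PDGFC takes 68.1% in thrombin 24 h against 79.5% in control 24 h, and the thrombin 24 h libraries lie at 5.78 or above where control 24 h libraries lie at 2.74 or below.

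Genes that act around the ligands and receptors were counted by role, and each count stands against the 6.29% of all genes tested that were higher and 5.52% lower at 4 h, and the 9.05% higher and 8.54% lower at 24 h. Of 5 tested proteases that process PDGF chains, 1 rose and 1 fell at 4 h and 1 rose at 24 h. The list's median log2 fold change was -0.25 at 4 h and 0.08 at 24 h. PLAT, tissue plasminogen activator, which is known to release active PDGFC, averaged 361 ± 21.8 CPM in thrombin libraries and 927 ± 228 CPM in control libraries at 4 h (SD, n = 3 each; log2 fold change -1.36 ± 0.14, adjusted p = 2.68e-06). At 24 h PLAT averaged 866 ± 177 CPM in thrombin libraries and 295 ± 15.7 CPM in control libraries (1.55 ± 0.14, adjusted p = 7.43e-08). FURIN, a convertase of the secretory pathway that cleaves A and B chain precursors, rose at 4 h by 0.31 ± 0.10 (adjusted p = 0.0434) and was not called at 24 h.

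Of 5 tested PDGF binding proteins and coreceptors, 1 rose at 4 h, and 1 rose and 1 fell at 24 h. The medians were -0.01 at 4 h and -0.12 at 24 h. SPARC, a matrix protein known to bind B chains and also on the stellate marker list, as is PDGFRB, had a log2 fold change of 0.60 ± 0.13 at 24 h (adjusted p = 0.00213). PDGFRL, a receptor-like gene without a kinase domain, rose at 4 h (0.69 ± 0.14, adjusted p = 0.00219) and fell at 24 h (-0.73 ± 0.15, adjusted p = 0.000792).

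Among 33 adaptors and effectors that act below the receptors, 5 rose and 0 fell at 4 h, and 4 rose and 3 fell at 24 h, with medians of 0.11 and 0.08. The 7 called at 24 h were a share near the 17.6% of all genes called at that time. The kinase gene SRC rose at 4 h by 0.47 ± 0.09 (adjusted p = 0.00109). NRAS, a RAS family GTPase, rose at 24 h by 0.40 ± 0.10 (adjusted p = 0.00745), while FYN, a SRC family kinase, and MAPK3, the kinase ERK1, fell at 24 h by 0.29 and 0.36 (log2 fold changes -0.29 ± 0.08 and -0.36 ± 0.10, adjusted p = 0.0114 and 0.0120). MAPK3 had risen at 4 h (0.31 ± 0.10, adjusted p = 0.0427).

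Of 9 tested negative regulators of the receptors, 0 rose and 2 fell at 4 h, and 3 rose and 0 fell at 24 h, with medians of -0.15 and 0.23. PTPRJ, a receptor tyrosine phosphatase known to act on PDGFRB, fell at 4 h (-0.33 ± 0.10, adjusted p = 0.0379) and rose at 24 h (0.79 ± 0.11, adjusted p = 6.83e-06). PTPN2, a cytosolic phosphatase with the same substrate, fell at 4 h (-0.43 ± 0.12, adjusted p = 0.0249) and rose at 24 h (0.41 ± 0.13, adjusted p = 0.0289). CAV1, which encodes the caveolar protein caveolin-1, averaged 1413 ± 99.5 CPM in thrombin libraries and 1020.0 ± 31.6 CPM in control libraries at 24 h (SD, n = 3 each; log2 fold change 0.47 ± 0.09, adjusted p = 0.00049).

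Genes known to be induced early by PDGF in fibroblasts numbered 25. At 4 h, 2 rose and 7 fell, and at 24 h, 11 rose and 1 fell, with medians of -0.12 and 0.35. Over all genes tested, 6.29% were higher and 5.52% lower at 4 h, and 9.05% higher and 8.54% lower at 24 h. CCL2, a monocyte chemokine, averaged 26.3 ± 5.27 CPM in thrombin libraries and 5.71 ± 1.14 CPM in control libraries at 24 h (SD, n = 3 each; log2 fold change 2.20 ± 0.23, adjusted p = 4.17e-07). MYC rose at 24 h by 0.78 ± 0.08 and CCN1, a matricellular protein gene, by 0.96 ± 0.09 (adjusted p = 1.43e-07 and 3.48e-08). FOSB, an AP-1 subunit, rose at 24 h by 1.43 ± 0.24 (adjusted p = 0.000151). At 4 h MYC and CCL2 fell (log2 fold changes -0.36 ± 0.08 and -0.78 ± 0.23, adjusted p = 0.00478 and 0.0322).

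Of 12 factors known to bind PDGF gene promoters, 0 rose and 1 fell at 4 h, and 3 rose and 1 fell at 24 h, with medians of 0.01 and 0.09. KLF5, which in mouse is known to act on the PDGFA gene, rose at 24 h by 0.96 ± 0.13 (adjusted p = 1.11e-05). WT1, a zinc finger factor that binds EGR-like sites, rose by 0.61 ± 0.12 and ETS1 by 0.96 ± 0.10 at 24 h (adjusted p = 0.000913 and 1.43e-07). KLF4 fell at 24 h by 1.34 (log2 fold change -1.34 ± 0.16, adjusted p = 2.68e-06). ETS1 was the factor that fell at 4 h (-0.40 ± 0.10, adjusted p = 0.0102). No gene of these lists was called at 48 h, a time at which 0 of the 15353 genes tested were called.

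**Figure D4:**
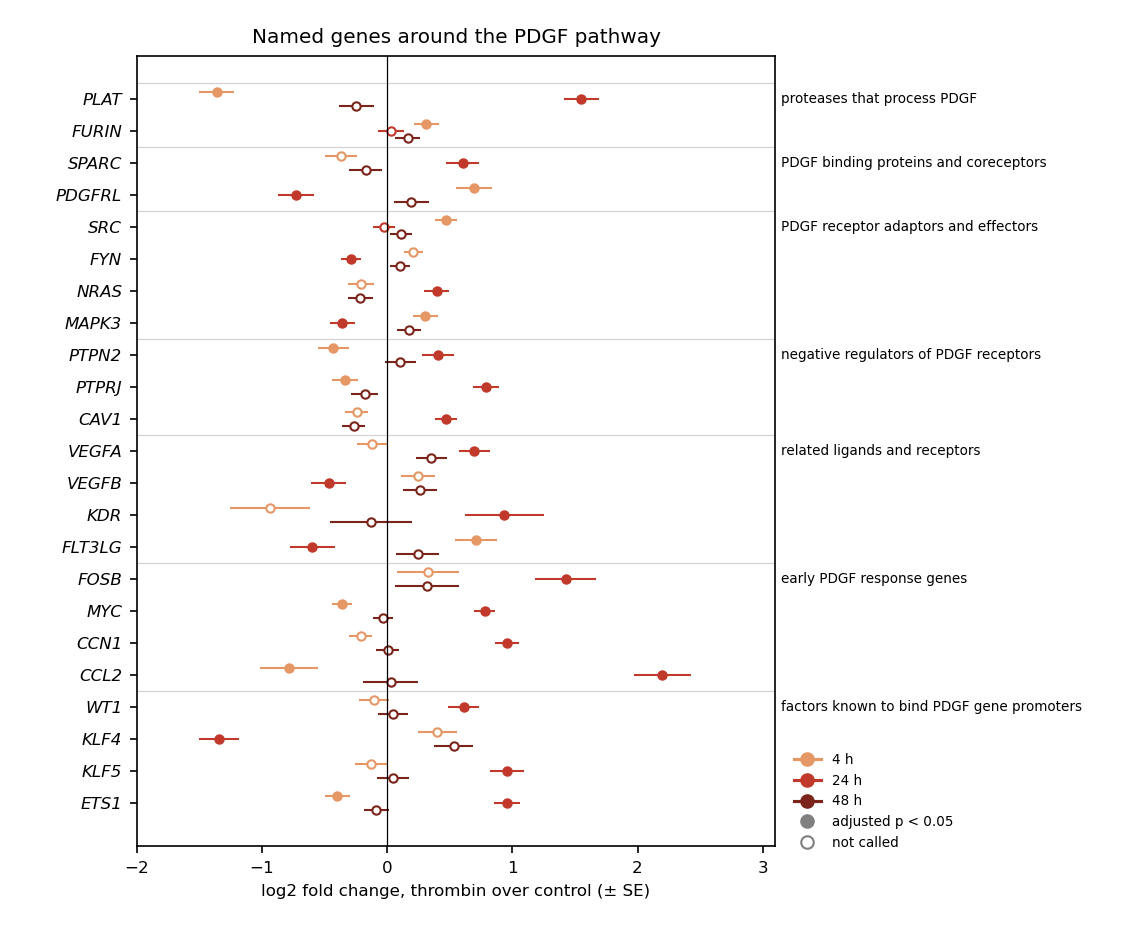
Log2 fold change of thrombin over control, with SE bars, for the named genes that act around the PDGF ligands and receptors, grouped by role; filled points had an adjusted p under 0.05 in edgeR's quasi-likelihood test. PLAT lies at -1.36 at 4 h and 1.55 at 24 h, CCL2 reaches 2.20 at 24 h, and every 48 h point is open. At 48 h, 0 of the 15353 genes tested were called.

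For each of the called members, and for PDGFRB, the genes with the most similar log2 CPM over the 18 libraries were listed. They were ranked by Pearson's r among 13858 candidates of at least 1 CPM on average. The libraries share their groups and depth, so r describes a shared course only. For PDGFA the 4 nearest were CAVIN1, a caveola coat protein gene (r = 0.98, Spearman's rho = 0.94), SPOCD1 (r = 0.97, rho = 0.93), ACTG1, the cytoplasmic gamma-actin gene (r = 0.96, rho = 0.85), and ITGA5, the fibronectin receptor alpha chain gene (r = 0.96, rho = 0.84). For PDGFB they were LAYN, a hyaluronan receptor gene (r = 0.94), KLF5 (r = 0.91), GBP1, a guanylate-binding protein gene (r = 0.91), and VGLL3, a TEAD cofactor gene (r = 0.89), each with rho from 0.75 to 0.85. For PDGFRA they were LRRFIP1 (r = 0.93, rho = 0.86), TXNRD1, the cytosolic thioredoxin reductase gene (r = 0.90, rho = 0.78), SOCS5 (r = 0.89, rho = 0.84) and CAB39 (r = 0.88, rho = 0.77). The lists of the 3 members shared no gene, but lists of 4 genes do not show separate courses. Between the members themselves r was 0.79 for PDGFA and PDGFRA (rho = 0.48) and 0.71 for PDGFA and PDGFB (rho = 0.54). For PDGFB and PDGFRA r was 0.64 (rho = 0.37). For PDGFRB the nearest were EFNB3, an ephrin gene (r = 0.92, rho = 0.93), PTK7 (r = 0.88), AHDC1 (r = 0.88) and KIAA1522 (r = 0.88).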

How the data were processed

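The authors' deposited table held raw read counts per gene symbol, with one column per library. Per the submitters' processing notes, DESeq2, SAMtools 1.21, Bowtie2 2.5.4 and cutadapt 4.9 were used with GRCh38 (hg38); the roles of the tools, the counter, the annotation and the strand setting are not given in the sources used here. Antisense or overlapping reads may therefore be mixed. Genes were filtered with filterByExpr (minimum count 10, minimum total 15), scaled by TMM (factors 0.945 to 1.031) and fitted in edgeR 4.0.16 (R 4.3.3) with a mean per group over all 18 libraries (biological coefficient of variation 9.07%, with 12 residual degrees of freedom). Quasi-likelihood tests were two-sided, with Benjamini-Hochberg adjustment over 15353 genes. DESeq2 1.42.0 was an alternative, as were RLE scaling, no filter, a replicate block, fits per time and fits without libraries. SE is the log2 fold change divided by the square root of F. Log2 CPM for likeness used a prior count of 2. The procedure was also run on counts simulated from the fitted means and dispersions, with known changes added. Those libraries were drawn independently, so the simulation cannot speak to exchanged labels or to the meaning of the replicate numbers.

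RPKM used the union of exons of the GENCODE v29 basic coding transcripts. Coordinates and promoter sequences are RefSeq's (GRCh38.p14). The 6 members, the 7 pathway lists and the 6 marker lists were chosen with earlier results of these data known. Up to 4 genes with the smallest adjusted p were named per pathway list. By likeness 4 genes were taken per member, and those of PDGFC and PDGFD are not printed. Poisson intervals cover counting error only.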

Additional observations from a re-analysis of the deposited data

Results flagged for a closer look

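The thrombin effect differed between times for 3 members in edgeR's quasi-likelihood test of the difference itself. From 4 h to 24 h the log2 effect was higher at 24 h by 1.36 for PDGFA, 1.05 for PDGFB and 1.99 for PDGFRA. From 24 h to 48 h it changed by -0.97 for PDGFA, -0.93 for PDGFB and -1.48 for PDGFRA. Over all genes tested, 28% were called in the 24 h minus 4 h difference and 13.8% in the 48 h minus 24 h difference. The PDGFRA change from 24 h to 48 h was no longer called without all libraries numbered 12 (-1.09, adjusted p = 0.116). The groups that enter these differences rest on the labels, and an exchange of treatment labels at 4 h or 24 h would change them. Both sets share the 24 h libraries, so they are not independent of each other.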

How the results depend on the processing

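In the 3 comparisons of thrombin with control, 214 of 216 values of the 6 members under another setting stayed on their side of the threshold; a sign change of an uncalled value by less than its SE was counted as unchanged. The exceptions were PDGFRA at 4 h without all libraries numbered 12 (-0.98, adjusted p = 0.0183) and PDGFRB at 24 h with no filter (-0.29, adjusted p = 0.0313). Without all libraries numbered 12, 1772 genes were higher and 1788 lower at 4 h, 4 higher and 1 lower at 48 h, PDGFRA lost its call in the 48 h minus 24 h difference (-1.09), and uncalled values changed sign for PDGFB in control 24 h against control 4 h (0.088) and PDGFRA in thrombin 48 h against thrombin 4 h (0.26). In the 6 libraries of one time, 570 genes were higher at 4 h and 2 lower at 48 h. At 48 h no filter gave 25 higher and 25 lower, and DESeq2 9 higher and 5 lower. PDGFRB was called in control 24 h against control 4 h with no filter (0.44) and in DESeq2 (0.45), and its 48 h minus 24 h difference with no filter (0.46).

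Same-numbered thrombin and control libraries of the same time had correlations of their deviations from -0.09 to 0.06, and the main fit did not pair samples by number. Over all groups and times, the 45 same-numbered pairs had a median of 0.01 and a highest value of 0.28. The 90 pairs with different numbers had -0.01 and 0.22. Values over 0.1 occurred in 11 of the 45 same-numbered pairs and in 10 of the 90 others. PDGFRB did follow the numbers, with 12 highest in 6 of 6 groups and 14 lowest in 5 of 6. What the numbers contribute was not tested further. With the replicate block, 951 genes were higher and 878 lower at 4 h, 1370 and 1308 at 24 h, and 0 and 1 at 48 h. With the replicate block PDGFRB was called in the 24 h minus 4 h difference (-0.55, adjusted p = 0.00379), the 48 h minus 24 h difference (0.47, adjusted p = 0.0216) and control 24 h against control 4 h (0.44, adjusted p = 0.00271).

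Leaving out 1 library in turn gave 425 to 1283 genes higher and 415 to 1114 lower at 4 h, 913 to 1283 and 785 to 1206 at 24 h, and 0 and 0 to 1 at 48 h. The 48 h minus 24 h difference had 732 to 1150 genes higher. Control 24 h against 4 h had 702 to 1190 higher and 584 to 1124 lower, thrombin 24 h against 4 h 750 to 1432 and 634 to 1538, and thrombin 48 h against 24 h 341 to 591 and 504 to 806. PDGFRB ranged from -0.69 to -0.36 in the 24 h minus 4 h difference and from 0.26 to 0.59 in control 24 h against 4 h, and was called in both without the control 4 h library numbered 12 or the control 24 h library numbered 14. PDGFRA in control 24 h against 4 h ranged from -0.97 to -0.43 and was called without the control 4 h library numbered 12 (-0.88, adjusted p = 0.0407). The low counts at 4 h came without number 13 or 14 of either group, and those at 24 h without control 24 h number 12 or 13 or thrombin 24 h number 14. The cause of these shifts was not tested. Depth limited PDGFRA and PDGFD, with at most 79 and 83 counts a library.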

Other observations

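Ligands and receptors related to the PDGF family by structure, of the VEGF, KIT, CSF1 and FLT3 systems, were counted in the same way. Of 12 tested, 1 rose and 0 fell at 4 h, and 2 rose and 2 fell at 24 h. Among all genes tested, 6.29% were higher and 5.52% lower at 4 h, and 9.05% higher and 8.54% lower at 24 h. VEGFA, the main angiogenic ligand, averaged 50.8 ± 8.68 CPM in thrombin libraries and 31.4 ± 1.06 CPM in control libraries at 24 h (SD, n = 3 each; log2 fold change 0.69 ± 0.12, adjusted p = 0.000246 in edgeR). VEGFB had a log2 fold change of -0.47 ± 0.14 at 24 h (adjusted p = 0.0199). KDR, a VEGF receptor gene that is also an endothelial marker, was scarce, at 2.41 ± 0.89 CPM in thrombin and 1.26 ± 0.63 CPM in control libraries at 24 h (0.93 ± 0.32, adjusted p = 0.0405). FLT3LG, the ligand of FLT3, rose at 4 h (0.71 ± 0.17, adjusted p = 0.00791) and fell at 24 h (-0.60 ± 0.18, adjusted p = 0.0198).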
